A study of Mus musculus with 6 samples.

Results

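The 10 genes described here encode transcription factors of mesoderm and of the tissues it forms. They are the GATA zinc-finger genes Gata2, Gata3, Gata4 and Gata6, the basic helix-loop-helix (bHLH) genes Hand1, Hand2, Tcf21 and Tcf15, the MADS-box gene Mef2c and the zinc-finger gene Wt1. They were picked by symbol from the 54532 genes of the deposited table, with differences between the sexes in these same libraries already known, so their values are given as a description without a test. The libraries were bulk RNA-seq of cultured primary mouse aortic endothelial cells (MAEC), 3 from female and 3 from male mice. All 6 carried the Oct4 KO genotype, an endothelial-specific loss of the pluripotency factor gene Oct4, and all were untreated, grown in serum-containing F-12 medium with heparin and endothelial growth factors. The promoter or Cre line behind the knockout and the age of the mice are not given in the sources used here. The sources do not tell either if the 3 libraries per sex stem from different mice or dishes, and every p-value therefore reflects only the spread among these libraries, which may be technical.

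GATA factors bind the sequence GATA through zinc fingers, often together with FOG cofactors and LIM-domain proteins. Tissue-restricted bHLH factors pair with widely expressed E proteins to bind E-box sequences, and ID proteins block them by taking up the E proteins. GATA2 is a regulator of endothelial and blood genes. GATA4, GATA6, HAND1 and HAND2 act with MEF2C in the developing heart, TCF21 and WT1 mark the epicardium and the mesenchyme it gives rise to, and TCF15 acts in somites and, with MEOX2, in the endothelium of heart capillaries.

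Total counts ran from 20404758 to 21483163 in the female and from 19299742 to 23064738 in the male libraries. CPM is the scaled read count over the effective library size, and a count of 0 allows up to 3 counts at 95%, which corresponded to 0.123 to 0.154 CPM and covers counting error only. The endothelial label was checked on 16 markers. Of these, 10 were under 1 CPM in all 6 libraries, and Cldn5, Emcn and Robo4 had 0 counts in all, while 3 others reached 10 CPM in every library. The 16 together summed to 196 to 214 CPM in the female and 276 to 342 CPM in the male libraries. By contrast, 10 of 12 fibroblast markers reached 10 CPM in every library, summing to 33712 to 36184 CPM in female and 21026 to 22890 CPM in male libraries. In bulk RNA, fewer cells of a type and less RNA per cell cannot be told apart.

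The stretches of 250 bases before the RefSeq transcription start (GRCm38.p6) are shown for 4 of the genes, because Hand2 and Tcf21 were read in male libraries alone, Mef2c leaned the other way and Gata2 was read in all 6. The letters are 5′ to 3′ on the gene's strand, with capitals for GATA on either strand (TATC where reversed) and for the E-box CANNTG. Hand2 lies at chr8:57320733-57320982 (+), Tcf21 at chr10:22820144-22820393 (-), Mef2c at chr13:83503784-83504033 (+) and Gata2 at chr6:88193641-88193890 (+).
Hand2: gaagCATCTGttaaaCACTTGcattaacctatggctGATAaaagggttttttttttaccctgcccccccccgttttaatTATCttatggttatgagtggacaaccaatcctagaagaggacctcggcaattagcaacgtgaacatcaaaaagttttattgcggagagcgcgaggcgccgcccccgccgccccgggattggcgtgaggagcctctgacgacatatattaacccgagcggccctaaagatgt
Tcf21: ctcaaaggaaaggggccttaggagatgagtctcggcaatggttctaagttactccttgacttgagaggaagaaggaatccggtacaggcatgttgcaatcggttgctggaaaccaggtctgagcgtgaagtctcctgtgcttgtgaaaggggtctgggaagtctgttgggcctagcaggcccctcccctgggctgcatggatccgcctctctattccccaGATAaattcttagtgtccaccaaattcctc
Mef2c: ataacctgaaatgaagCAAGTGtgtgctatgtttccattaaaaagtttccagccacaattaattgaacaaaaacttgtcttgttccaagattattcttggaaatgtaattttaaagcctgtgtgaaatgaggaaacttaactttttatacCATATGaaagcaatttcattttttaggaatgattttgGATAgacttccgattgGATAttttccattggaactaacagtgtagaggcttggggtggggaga
Gata2: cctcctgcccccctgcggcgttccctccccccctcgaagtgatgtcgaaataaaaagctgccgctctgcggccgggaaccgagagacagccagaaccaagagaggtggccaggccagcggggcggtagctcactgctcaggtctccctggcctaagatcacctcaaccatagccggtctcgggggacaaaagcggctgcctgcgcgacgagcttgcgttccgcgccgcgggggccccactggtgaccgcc
The Hand2 window held 2 GATA matches and 2 E-boxes, and that of Mef2c also held 2 of each. The Tcf21 window held 1 GATA match and no E-box, and the Gata2 window neither. Over all 32851 RefSeq windows of the same length, 53.6% held GATA and 66.2% held CANNTG, so these matches are common. The windows differed in base composition. The G and C content was 67.2% for Gata2, with 22 CG dinucleotides, and 33.6% for Mef2c, with 1, against a median of 52.4% and 6 over all windows. The table holds further starts for both genes. The other Gata2 window held 74% G and C, no GATA match and no E-box, and the other Mef2c windows held 44.8% and 49.6%, each with 2 GATA matches, with 0 and 1 E-boxes. For Gata2 and Mef2c the windows shown are those at the annotated gene start. The Tcf21 window reaches into the annotated gene, which ends at 22820174, and its GATA match lies in that part. Hand2 held 49.2% and 15 CG, and Tcf21 52.4% and 5.

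The set divided into genes read in both sexes, genes read in male libraries alone and genes at or near 0 everywhere. In female libraries 3 of the 10 reached a mean of 1 CPM (Gata6, Gata2 and Mef2c), and in male libraries 6 did (the same 3 with Gata4, Tcf21 and Hand2). The low-count filter left 6 to fit, of which Mef2c was called higher and Gata2, Gata4, Gata6, Tcf21 and Hand2 lower in female libraries. Calls by edgeR at an adjusted p under 0.05 covered 60.7% of the 14814 genes tested, 30.9% higher and 29.8% lower in female. Female and male CPM were free of overlap for all 6, as for 67.1% of all genes tested. Nothing is read from these counts, since the sex difference chose the genes. Gata4, Tcf21 and Hand2 moreover passed the filter only through their male libraries and so had to differ, and 0.338% of all genes tested had 0 counts in every female library (0.56% in every male library, where none of the 10 was at 0 with counts in female).

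**Figure D1:**
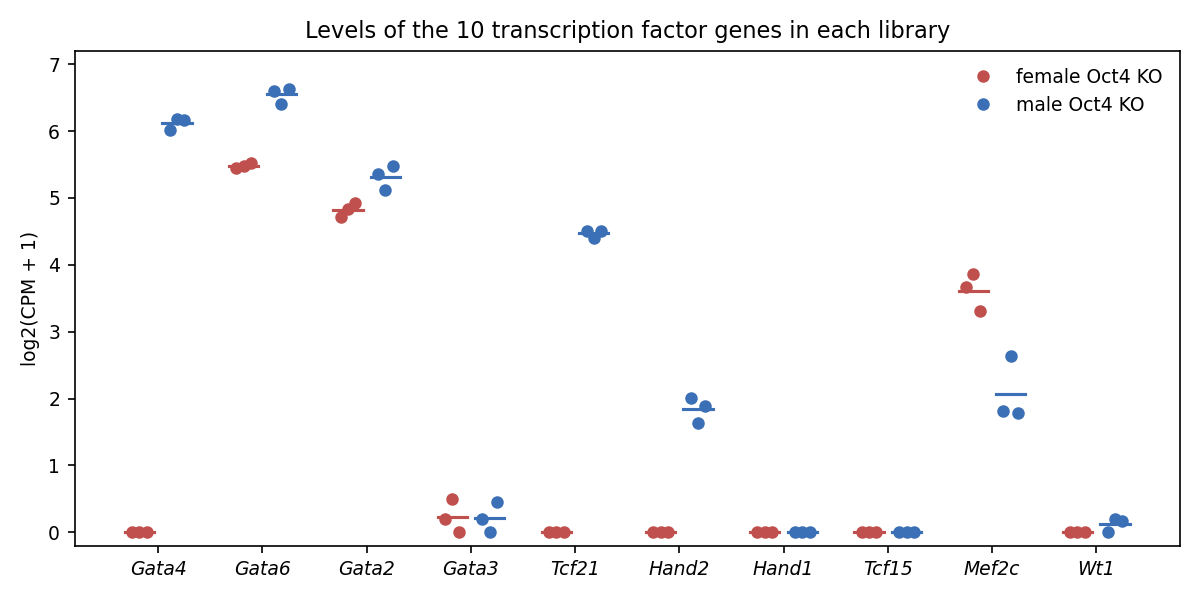
Level of each of the 10 genes as log2(CPM + 1) in the 3 female Oct4 KO libraries (red, left) and the 3 male Oct4 KO libraries (blue, right). Points are libraries and bars are means. Gata4, Tcf21 and Hand2 sit at 0 in all female libraries and away from 0 in all male ones, Gata6 and Gata2 are read in both sexes with higher male points, and the female points of Mef2c lie above its male points.

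Gata4 showed the largest difference of the set by bound. Gata4 (mm10 chromosome 14, 63198922 to 63271692, minus strand), which drives heart and visceral mesoderm genes, had 0 counts in each female library, against 1341, 1413 and 1712 counts in the male libraries. The male libraries were close together and averaged 68.4 ± 4.20 CPM (SD, n = 3). Taken against 3 counts per female library, Gata4 was at least 455-fold higher in male. No other gene row of the table overlapped its span.

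Gata6 (chromosome 18, 11052508 to 11085635), a relative of GATA4 in heart, vessel wall and endoderm, had 882, 852 and 884 counts in the female libraries, against 2028, 1667 and 2391 in the male libraries. Every female library was below every male one. Gata6 averaged 43.7 ± 1.10 CPM in female and 92.9 ± 7.69 CPM in male libraries (SD, n = 3 each), a log2 fold change, female over male, of -1.09 ± 0.09 (SE). Of its 6508 exon bases, 93 were shared with the antisense RNA 1010001N08Rik, which had 55, 35 and 18 counts in female and 76, 43 and 98 in male libraries. Whether reads were assigned by strand is not given, so reads of this short overlap cannot be told apart.

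Gata2 (chromosome 6, 88193891 to 88207032), the GATA factor of endothelial and blood cells, had 524, 535 and 577 counts in the female libraries, against 844, 668 and 1059 in the male libraries. The lowest male library, number 2, was still above the highest female one, by CPM as by counts. Gata2 averaged 27.3 ± 1.97 CPM in female and 39.1 ± 5.00 CPM in male libraries (SD, n = 3 each), a log2 fold change of -0.52 ± 0.11 (SE), the smallest of the set among the genes fitted. Gata3 (chromosome 2, 9857078 to 9890034), known from T cells and other tissues, had 3, 8 and 0 counts in female and 3, 0 and 9 counts in male libraries. The sexes overlapped and Gata3 was not fitted.

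Per length, the GATA genes differed in make-up as well as in sum. RPKM here is CPM per kilobase of the deposited gene length. The sum of Gata2, Gata3, Gata4 and Gata6 was 12.9 ± 0.547 RPKM in female and 41.4 ± 2.17 RPKM in male libraries (SD, n = 3 each). Gata6 made up 60.5% ± 1.08 of the sum in female and 40.1% ± 1.99 in male libraries. Gata2 made up 39.1% ± 1.18 in female and 17.4% ± 1.44 in male libraries. Gata4 was the remainder in male libraries, at 42.4% ± 3.36, with 39.8%, 46.2% and 41.2% in the 3. Leaving Gata4 aside, the balance of the other GATA genes also differed, with a Gata6 to Gata2 ratio of 1.48 to 1.63 in female and 2.18 to 2.41 in male libraries. The deposited length of Gata6 is 5590 bases, against 6508 bases of exons in GENCODE M21. With the longer length its level was 6.71 RPKM in female and 14.3 RPKM in male libraries, in place of 7.81 and 16.6.

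**Figure D2:**
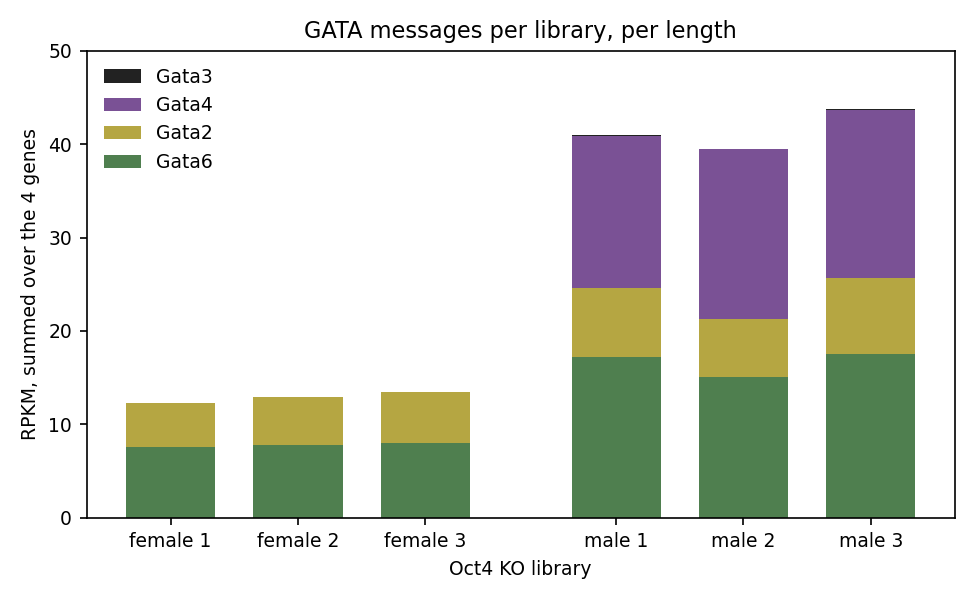
RPKM of the 4 GATA genes, stacked, in each of the 3 female and 3 male Oct4 KO libraries. Female stacks of 12.3 to 13.4 RPKM hold Gata6 and Gata2, and male stacks of 39.5 to 43.8 RPKM also hold Gata4. Gata3 is too low to be seen in most stacks.

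The bHLH genes were read in male libraries or not at all. Tcf21 (chromosome 10, 22817281 to 22820174, minus strand), which is needed for cardiac fibroblasts to form from the epicardium, had 0 counts in each female library, against 460, 401 and 525 counts in the male libraries. Tcf21 averaged 21.2 ± 0.863 CPM in male libraries and was at least 141-fold higher there. Its antisense neighbour Gm10824, which shares no exon base with it, had 0 counts in each female library, against 7, 0 and 12 in the male libraries. Hand2 (chromosome 8, 57320983 to 57324633), a factor of the right ventricle, limb and sympathetic neurons, had 0 counts in each female library, against 64, 42 and 66 counts in the male libraries. Hand2 averaged 2.62 ± 0.465 CPM in male libraries and was at least 17.5-fold higher there. The antisense gene AV026068 shares 461 of the 2351 exon bases of Hand2 (19.6%) and had 0 counts in all 6 libraries. How reads in shared exons were assigned is not given, so the level of Hand2 is uncertain to that extent. Hand1 (chromosome 11, 57828705 to 57832818), the left-ventricle relative of Hand2, and Tcf15 (chromosome 2, 152143561 to 152149097) had 0 counts in all 6 libraries.

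Mef2c (chromosome 13, 83504034 to 83667080), whose protein recruits kinases and histone deacetylases to muscle and vascular genes, had 242, 265 and 176 counts in the female libraries, against 53, 103 and 59 in the male libraries. The spread was wide in both sexes but the lowest female library, number 3, stayed above the highest male one, number 2. Mef2c averaged 11.4 ± 2.34 CPM in female and 3.38 ± 1.57 CPM in male libraries (SD, n = 3 each), a log2 fold change of 1.76 ± 0.27 (SE), or 3.40-fold. Its estimate ranged from 1.56 to 2.19 when single libraries were left out and was 1.25 with a correction for gene length. That correction bears on Mef2c because female libraries read long genes relatively more than male ones, and its exons cover 15715 bases. Slopes on log2 length were taken for each gene's deviation from its mean log2 CPM over all libraries. They were 0.0688 to 0.180 in female and -0.155 to -0.100 in male libraries, and so are relative to each other. Wt1 (chromosome 2, 105126529 to 105173616), a factor of kidney and epicardium, had 0 counts in the female libraries, against 0, 3 and 3 in the male libraries, which is within the limit that a count of 0 allows.

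Ordered by level per length, the female libraries held Gata6 at 7.81 ± 0.197 RPKM, then Gata2 at 5.06 ± 0.365, then Mef2c at 0.725 ± 0.149, with no overlap between these neighbours. Gata3, at 0.0465 RPKM, overlapped the 6 genes listed at 0. The male libraries began with Gata4 at 17.5 ± 1.08 RPKM and Gata6 at 16.6 ± 1.38, whose ranges overlapped. With the GENCODE length Gata6 ran from 12.9 to 15.1 RPKM in male libraries, below every Gata4 value, so that overlap depends on the length used. Tcf21 followed at 9.03 ± 0.368, Gata2 at 7.24 ± 0.926, Hand2 at 1.12 ± 0.198 and Mef2c at 0.215 ± 0.100, again with no overlap between neighbours. The count of Gata4 per count of Tcf21 was 2.92 to 3.52 over the male libraries. The order of Mef2c rests on a length that adds up the exons of 31 annotated transcripts.

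Several marker lists differed in summed level along with Gata4, Tcf21 and Hand2. Smooth muscle markers (10 genes, Actg2 at 0 in all) summed to 63.6 to 68.9 CPM in female and 160 to 174 CPM in male libraries, with 1 of 6 tested genes higher and 4 lower in female. Of the 10, 5 were under 1 CPM in all libraries and 1 reached 10 CPM in all. Pericyte markers (8 genes, Higd1b at 0) summed to 450 to 471 CPM in female and 749 to 792 CPM in male libraries. Only 1 of the 8 reached 10 CPM in all libraries, and 4 of the 7 tested were higher in female and 3 lower. Adipocyte markers (8 genes, Cidec and Lep at 0) summed to 23.7 to 27.4 CPM in female and 48.9 to 58.9 CPM in male libraries. Of these, 4 were under 1 CPM in all libraries and none reached 10 CPM in all. Neural crest and glia markers (7 genes, 6 under 1 CPM in all libraries) summed to 2.48 to 2.77 CPM in female and 5.10 to 5.79 CPM in male libraries. The part of these cell types in the result was not tested. Cardiac muscle markers stayed near 0, with 7 of 8 under 1 CPM in all libraries, Myh6, Myh7 and Myl7 at 0, and sums of 0.205 to 0.659 CPM in female and 1.06 to 2.09 CPM in male libraries. Of 10 mesothelial markers 5 (Gpm6a, Lrrn4, Msln, Muc16 and Upk3b) had 0 counts in all libraries, and the list summed to 15.0 to 21.8 CPM in female and 13.5 to 19.1 CPM in male libraries. The sums of 10 leukocyte markers also overlapped, at 71.8 to 86.6 CPM in female and 77.4 to 94.1 CPM in male libraries.

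Partners of the GATA proteins were called in both directions. Of 14 listed family members and cofactors 8 were tested, with 3 higher, 2 lower and 3 not called in female libraries. Calls covered 62.5% of the 8, beside 60.7% of all genes tested (30.9% higher and 29.8% lower in female). The median log2 fold change was -0.14, against -0.01 over all genes tested. Lmo2, the LIM-domain bridge of GATA complexes in blood and endothelium, averaged 0.732 ± 0.0800 CPM in female and 12.6 ± 0.588 CPM in male libraries (log2 -4.09 ± 0.23, edgeR adjusted p = 1.31e-10). Its relative Lmo4 was higher in female, at 170 ± 10.5 against 104 ± 7.54 CPM in male libraries (log2 0.72 ± 0.08, edgeR adjusted p = 1.31e-06). Zfpm1, the gene of the cofactor FOG1, averaged 20.3 ± 1.73 CPM in female and 40.9 ± 2.26 CPM in male libraries (log2 -1.01 ± 0.11, edgeR adjusted p = 4.87e-07). Zfpm2, the gene of FOG2, the cofactor of GATA4 in the heart, was not called and averaged 27.9 ± 4.53 CPM in female and 30.3 ± 1.31 CPM in male libraries (log2 -0.12 ± 0.12, edgeR adjusted p = 0.416). With the correction for gene length it was called lower, at -0.46 (adjusted p = 0.00177). Trps1, an atypical GATA repressor, was higher in female, at 120 ± 15.1 against 74.4 ± 4.96 CPM in male libraries (edgeR adjusted p = 1.08e-05). Its log2 fold change was 0.69 ± 0.10 and ran from 0.24 to 0.79 over the 14 alternatives. Gata1, Gata5 and Tal1 had 0 counts in all 6 libraries.

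Of 28 bHLH partners, inhibitors and relatives 11 had 0 counts in all libraries and 11 were tested. Of the tested genes 4 were higher, 3 lower and 4 not called, around a median of 0.05. The called share was 63.6%, beside 60.7% of all genes tested. The E protein genes, whose products dimerise with HAND and TCF21, divided. Tcf12 was higher in female, at 298 ± 30.0 against 82.3 ± 8.53 CPM in male libraries (log2 1.85 ± 0.10, edgeR adjusted p = 4.36e-11), and so was Tcf4, at 415 ± 23.8 against 239 ± 21.9 CPM. The log2 fold change of Tcf4 was 0.80 ± 0.08 and ran from 0.22 to 0.85 over the 14 alternatives. Tcf3 was lower, at 126 ± 7.10 CPM in female and 179 ± 2.56 CPM in male libraries (log2 -0.50 ± 0.08, edgeR adjusted p = 2.76e-05). The inhibitor gene Id2 was lower in female, at 11.7 ± 0.905 against 29.9 ± 2.35 CPM in male libraries, while Id1 was at 27.7 ± 2.08 CPM in female and 26.8 ± 1.42 CPM in male libraries and was not called (log2 0.05 ± 0.11, and 0.55 with the length correction, edgeR adjusted p = 0.000295). Twist2, a bHLH gene of dermal and other mesenchyme, was higher in female, at 47.7 ± 6.99 against 21.04 ± 1.06 CPM in male libraries (log2 1.18 ± 0.12, edgeR adjusted p = 1.84e-07).

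The MEF2 list held family members, kinases and repressors, together with the genes of serum response factor (SRF) and its coactivators. Of its 12 tested genes 6 were called higher and 1 lower in female, with 5 not called and a median of 0.29. The called share was 58.3%, beside 60.7% of all genes tested (30.9% higher and 29.8% lower). Whether the list leans to female was not tested. Mef2d was higher in female, at 140 ± 6.47 against 79.3 ± 7.47 CPM in male libraries (log2 0.81 ± 0.09, edgeR adjusted p = 4.31e-07). The class IIa histone deacetylase genes, whose products repress MEF2 targets, included Hdac9 at 6.64 ± 0.715 CPM in female and 1.79 ± 0.572 CPM in male libraries (log2 1.88 ± 0.28, edgeR adjusted p = 1.61e-05) and Hdac5 at 218 ± 3.85 CPM in female and 154 ± 3.90 CPM in male libraries. The log2 fold change of Hdac5 was 0.50 ± 0.07, and 0.20 with the length correction (edgeR adjusted p = 0.0236). Hdac7, of the same class, was lower in female, at 88.1 ± 5.74 against 113 ± 3.97 CPM in male libraries (log2 -0.36 ± 0.08, edgeR adjusted p = 0.000941). The SRF coactivator gene Mkl2 was also higher in female, with a log2 fold change of 0.75 ± 0.12 (0.43 to 0.84 over the 14 alternatives).

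Other transcription factors of cardiac, lateral and somitic mesoderm held further genes read in a single sex. Of 22 tested cardiac and lateral mesoderm factors 7 were higher and 8 lower, 7 were not called, and the median was -0.12. Calls made up 68.2% of these, beside 60.7% of all genes tested. Isl1, of the anterior heart field, averaged 15.5 ± 3.12 CPM in female libraries with 0 counts in each male library, at least 111-fold higher in female. Tbx5, a partner of GATA4, had no count in any female library and averaged 11.05 ± 1.15 CPM in the male libraries, which makes it at least 73.6-fold higher in male. Foxf1, of splanchnic mesoderm, was at 1.12 ± 0.130 CPM in female and 37.9 ± 4.04 CPM in male libraries (log2 -5.08 ± 0.17, edgeR adjusted p = 1.72e-13). Prrx1, of limb and other mesenchyme, was at 973 ± 73.0 CPM in female and 275 ± 20.6 CPM in male libraries, and Tbx3 had a log2 fold change of 2.25 ± 0.08. Nkx2-5 and Tbx20, defining factors of heart muscle, had 0 counts in all 6 libraries. Of 5 tested somite factors (60% called) Pax1, of the sclerotome, was higher and Nkx3-2 and Meox1 were lower in female. Pax1 averaged 75.7 ± 7.39 CPM in female libraries with 0 counts in each male library, at least 544-fold higher in female. Pax1, Isl1 and Tbx5 passed the low-count filter only through the sex that read them and so had to differ. Nkx3-2 was at 0.368 ± 0.0375 CPM in female and 1.45 ± 0.376 CPM in male libraries (edgeR adjusted p = 0.00264). Meox1 was at 0.991 ± 0.530 CPM in female and 2.18 ± 0.194 CPM in male libraries (log2 -1.13 ± 0.45, edgeR adjusted p = 0.0386). The Meox1 call was lost on leaving out female replicate 2 (adjusted p = 0.130) or 3 (0.0548), male replicate 1 (0.0844) or 3 (0.0952), or with the length correction (0.127).

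Genes regulated by these factors in heart muscle were mostly silent. Of 18 listed targets 13 were under 1 CPM in all libraries. The 5 tested held 2 lower in female and 3 not called, with a median of -0.25. That is 40% called, beside 60.7% of all genes tested. Myl4, an atrial myosin light chain gene, was at 1.46 ± 0.307 CPM in female and 3.64 ± 0.702 CPM in male libraries (log2 -1.31 ± 0.32, edgeR adjusted p = 0.00211). Tnni3, the cardiac troponin I gene, was at 0.448 ± 0.214 CPM in female and 1.31 ± 0.644 CPM in male libraries (log2 -1.53 ± 0.57, edgeR adjusted p = 0.0272). That call was lost on leaving out female replicate 1 (adjusted p = 0.0571) or 2 (0.114), male replicate 1 (0.171) or 3 (0.0656), or with the length correction (0.0783). Slc8a1 and Ttn were not called, with log2 fold changes of 0.13 ± 0.23 and 0.42 ± 0.64.

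Of 22 endothelial and blood targets of GATA2, 13 were under 1 CPM in all libraries. The 9 tested were all called, 5 higher and 4 lower in female, with a median of 0.73, where 60.7% of all genes tested were called. Between 8 and 10 were called over the 14 alternatives, and the 8 arose, among others, in both DESeq2 settings and without female replicate 3, male replicate 1 or male replicate 2. Vcam1, which encodes a leukocyte adhesion receptor, averaged 93.1 ± 4.79 CPM in female and 1594 ± 79.9 CPM in male libraries (log2 -4.10 ± 0.09, edgeR adjusted p = 7.52e-16). Sele, the gene of E-selectin, differed in the other direction, at 13.5 ± 1.09 CPM in female and 0.959 ± 0.336 CPM in male libraries (log2 3.79 ± 0.25, edgeR adjusted p = 8.16e-10). Cd34 and Angpt2 were also higher in female, with log2 fold changes of 1.89 ± 0.13 and 1.52 ± 0.16.

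Among 12 tested epicardial and mesothelial genes 2 were higher, 6 lower and 4 not called in female, with a median of -0.88. The called share was 66.7%, beside 60.7% of all genes tested. Sema3d, a guidance cue of the epicardium, was at 0.314 ± 0.166 CPM in female and 16.0 ± 2.94 CPM in male libraries (log2 -5.64 ± 0.30, edgeR adjusted p = 5.51e-11). Aldh1a1 was at 1.34 ± 0.757 CPM in female and 15.8 ± 0.927 CPM in male libraries, and Sulf1 had a log2 fold change of -1.22 ± 0.08. Rspo1, a Wnt agonist gene, was higher in female, at 33.9 ± 8.19 against 5.42 ± 1.01 CPM in male libraries.

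GATA4 and GATA6 also drive primitive endoderm genes. Of 15 such genes tested 8 were higher, 4 lower and 3 not called in female, with a median of 0.67. Apoe, a lipoprotein gene, was at 27.3 ± 5.08 CPM in female and 821 ± 44.2 CPM in male libraries (log2 -4.91 ± 0.12, edgeR adjusted p = 3.02e-15), and Foxa2 at 0.186 ± 0.119 CPM in female and 10.6 ± 0.204 CPM in male libraries. Thbd, the gene of thrombomodulin, and Bmp2 were higher in female, at 1390 ± 31.7 against 219 ± 16.9 CPM and 245 ± 17.1 against 30.5 ± 3.72 CPM in male libraries. Of 8 tested fatty acid uptake genes of MEOX2 and TCF15, 2 were higher and 3 lower, 3 were not called, and the median was -0.08. Pparg was lower (log2 -2.24 ± 0.17) and Fabp4 too (-1.52 ± 0.21), while Fabp3 (1.45 ± 0.34) and Cd36 (0.67 ± 0.20) were higher in female. Across the 10 lists, 38 of 105 distinct tested genes were higher and 35 lower, beside 30.9% and 29.8% of all genes tested.

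**Figure D3:**
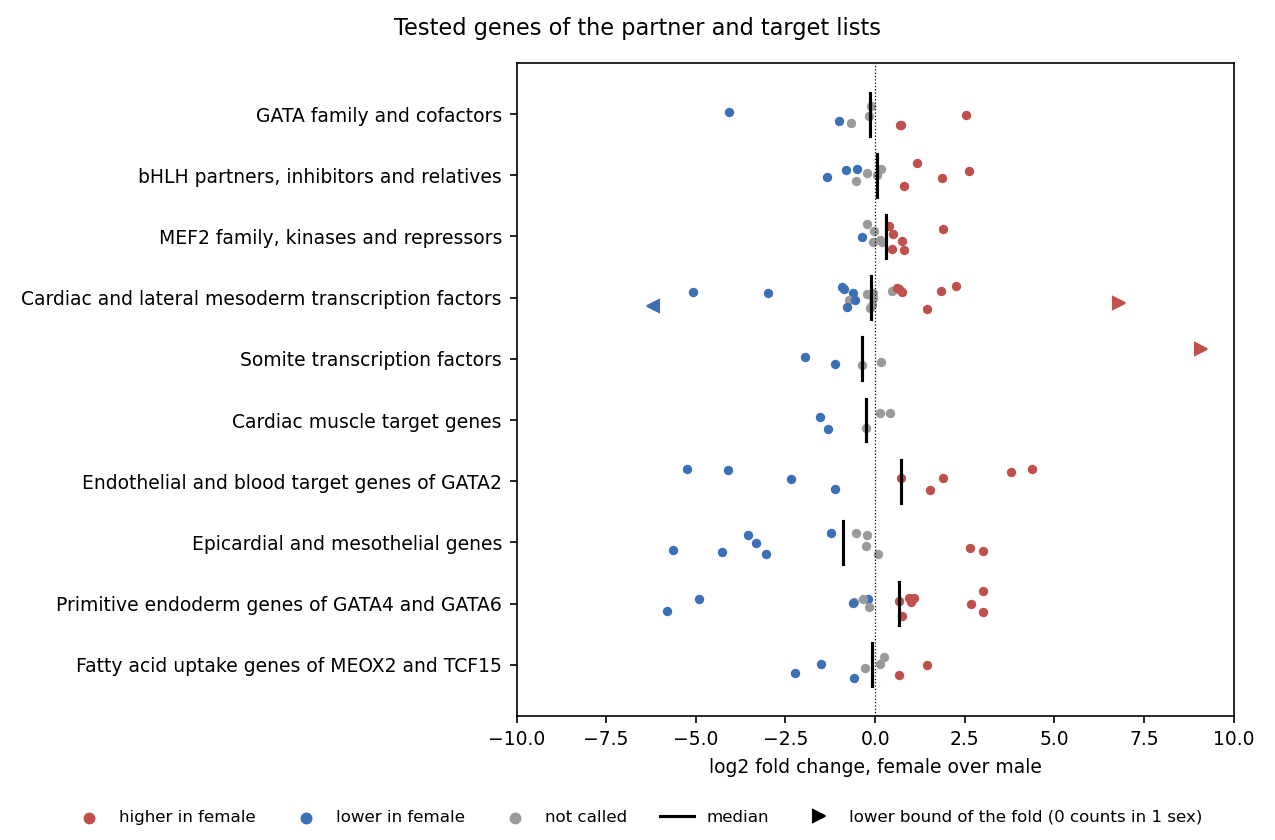
Log2 fold change, female over male, of each tested gene in the 10 lists of partners and targets, red where higher in female, blue where lower and grey where not called by edgeR. Black bars are medians, and triangles mark lower bounds for Isl1 and Pax1 (0 counts in male) and Tbx5 (0 counts in female). Every list but that of heart muscle targets holds calls in both directions, with list medians from -0.88 to 0.73.

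Genes beside the 10 loci were compared as well, since position played no part in the choice. Within 100 kb lay 54 other gene rows, of which 30 had 0 counts in all libraries and 15 were tested, with 5 higher, 4 lower and 6 not called in female (60.7% of all genes tested were called). The 3 tested neighbours of Gata4 were all higher in female, against the direction of Gata4. Neil2, a DNA repair gene 5066 bases away, was at 2.39 ± 0.511 CPM in female and 0.668 ± 0.289 CPM in male libraries (log2 1.84 ± 0.45, edgeR adjusted p = 0.00183). Fdft1, the squalene synthase gene, had a log2 fold change of 0.37 ± 0.09 (edgeR adjusted p = 0.00131) and Ctsb, the cathepsin B gene, of 0.88 ± 0.08 (edgeR adjusted p = 6.40e-08). Beside Gata2, Eefsec (-0.75 ± 0.15, edgeR adjusted p = 0.000435) and Rpn1 (-1.01 ± 0.08, edgeR adjusted p = 8.16e-09) were lower in female.

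Around the other loci, Tbpl1 near Tcf21 was not called (0.03 ± 0.12, edgeR adjusted p = 0.843), nor was Taf3 near Gata3 (0.15 ± 0.13, edgeR adjusted p = 0.323). The antisense RNA 1010001N08Rik at Gata6 was not called (-0.87 ± 0.38, edgeR adjusted p = 0.0592), but was without female replicate 1 (adjusted p = 0.0202) or male replicate 2 (0.0232), over a range of 0.0202 to 0.216 in 14 alternatives. Near Hand1, Sap30l had a log2 fold change of -0.05 ± 0.11 (edgeR adjusted p = 0.722), which became 0.45 with the length correction (adjusted p = 0.000940). Galnt10, a glycosyltransferase gene, was lower in female (-0.57 ± 0.09, edgeR adjusted p = 2.12e-05). 2010001A14Rik was not called (-0.75 ± 0.36, edgeR adjusted p = 0.0845), but was without male replicate 2 (adjusted p = 0.0142). Near Tcf15, which is silent, Srxn1 was higher in female (0.34 ± 0.08, edgeR adjusted p = 0.00116). The pseudogene Rps15a-ps7 was called lower (-0.65 ± 0.27, edgeR adjusted p = 0.0471), a call lost on leaving out any female replicate (adjusted p = 0.119, 0.0523 and 0.0915) or male replicate 1 (0.241) or 2 (0.0857). It was also lost with DESeq2 (0.0554), DESeq2 size factors (0.0503), limma-voom (0.0840) and the length correction (log2 -0.10, adjusted p = 0.778), and the pseudogene shares sequence with its parent gene. No gene near Hand2, Mef2c or Wt1 had enough counts to test.

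**Figure D4:**
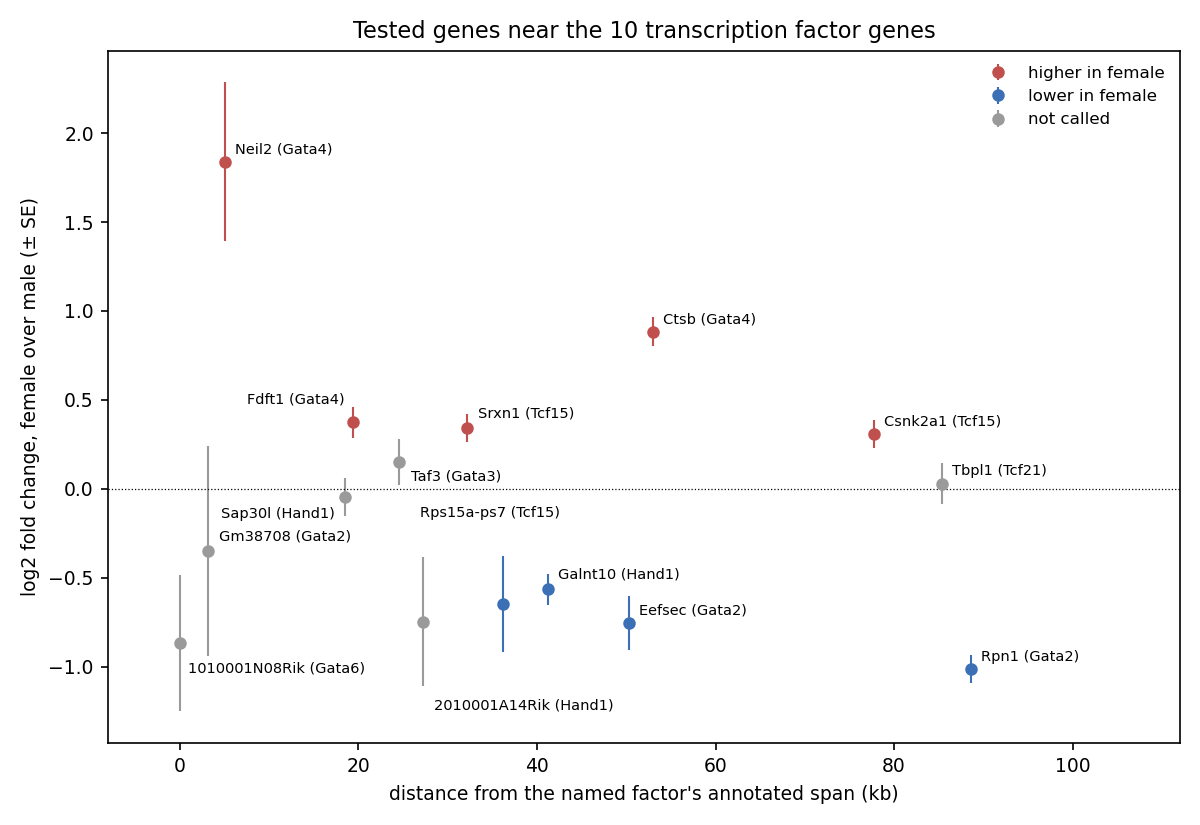
Log2 fold change, female over male, with its SE, of the 15 tested genes within 100 kb of the 10 loci, by distance in kb from the annotated span of the factor named in parentheses. Red marks genes higher in female, blue lower and grey not called by edgeR. The 3 neighbours of Gata4 lie above 0 and the called neighbours of Gata2 lie below it.

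The genes whose levels lay closest to each factor were sought by the root mean square difference of log2(CPM + 1) over the 6 libraries, among 12226 autosomal protein-coding genes. Closeness is a description here, since the 3 libraries of a sex largely share a level. Gata4 was closest to Fndc1 (0.0683) and Pcsk6 (0.0758), which had 2 and 1 counts over the female libraries, against 4613 and 4655 over the male libraries. Tcf21 was closest to Rgs4 (0.111) and Klhl6 (0.156), and Hand2 to Cav3 (0.0335) and Gbgt1 (0.0793). Cav3, the caveolin gene of muscle, had 0 counts over the female libraries, against 167 over the male ones. Gata6 was closest to Ube2g2 (0.0968) and Uxs1 (0.105), Gata2 to Slc7a6os (0.103) and Bcas3 (0.115), and Mef2c to Syt7 (0.191) and Ankrd37 (0.211).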

How the data were processed

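The deposited table holds raw read counts per gene in the 6 libraries. Per the submitters' processing notes, the mm10 alignment used HISAT2 2.0.5 and the gene counting featureCounts 1.5. Per the labels, polyadenylated RNA was copied from random hexamers, and strand use and the handling of multi-mapping reads are not given in the sources used here. Coordinates and gene lengths are those of the deposited table, and 9 of the 10 genes had the same span in GENCODE M21, all but Gata6.

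Counts were fitted over all genes by edgeR 4.0.16 (R 4.3.3) after TMM scaling and the filterByExpr filter, with a quasi-likelihood F test on sex (glmQLFit, glmQLFTest). P-values were two-sided and adjusted by Benjamini-Hochberg, and a gene was called under 0.05. The SE is the size of the log2 fold change over the square root of F. No pair of libraries of a sex agreed within counting noise (7.40 to 16.0 chi-square units per degree of freedom). Alternatives used DESeq2 1.42.0, limma 3.58.1, other scalings, no low-count filter, a gene length offset, the sample number as a block and single libraries left out.

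The 10 genes, the lists and the rules were chosen with earlier results of these data known. Named were the 10 genes, up to 4 tested genes with the smallest adjusted p per list, up to 2 neighbours per gene, nearest first with at least 1 CPM in a sex, and the 2 closest genes in level. The values of 1 gene that this rule names are not reported here. Ctsb, Galnt10, Hdac7, Zfpm2, Gata1, Gata5, Tal1, Tcf3, Id1, Tbx5, Nkx2-5, Tbx20, AV026068 and Gm10824 were named after their values were seen. RefSeq windows (GRCm38.p6) matched 5 of the 10 genes.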

Additional observations from a re-analysis of the deposited data

How the results depend on the processing

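Under all 14 alternatives each of the 6 fitted factors kept its call and direction. That is no independent support, since the genes were chosen with the sex difference in these libraries known. Gata4, Tcf21 and Hand2, at 0 counts in every female library, could hardly have changed direction. The fitted fold changes of Gata4, Tcf21 and Hand2, which rest on 0 female counts, moved in 7 results and are not printed. Counting with no scaling beyond the total shifted the median of all genes to -0.13 and the share of calls that were higher in female to 42.8%, from 50.9%. Genes called overall ran from 8236 to 9320, against 8993. Calls over the list genes ran from 71 to 81, against 73. For the other 58 named genes, 781 results kept their call, 20 lost it and 10 gained it. In 1 further result the sign reversed. Sap30l, not called at -0.05, was called at 0.45 with the length correction. The somite list had 5 calls without the low-count filter, against 3. The heart muscle list had 1 call with the length correction and 1 to 2 with single libraries left out, against 2. Gata6 stood at 6.71 RPKM in female and 14.3 RPKM in male libraries with the GENCODE exon length. Same-numbered libraries did not deviate together (correlations -0.0243, -0.114 and -0.164), and differently numbered ones ran from -0.0702 to 0.187. No pairing by number was seen, although with 3 libraries per sex this cannot show that none exists. With the replicate block 4360 genes were higher and 4165 lower, against 4580 and 4413. Depth sets the limit for Wt1 and Gata3, which lie near what a count of 0 allows.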

Other observations

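By the family given in the deposited annotation, 14 genes of the table carry a GATA zinc finger, 10 of them tested, with 3 higher, 5 lower and 2 not called in female libraries. Gata4 was the only tested gene among these with 0 counts in every female library, and none had 0 counts in every male library. Of 100 bHLH genes 34 had 0 counts in all libraries and 50 were tested, with 18 higher, 16 lower and 16 not called. Hand2 and Tcf21 were the only tested genes among these with 0 counts in every female library, and none had 0 in every male library. Both family counts include 4 of the 10 genes, which were chosen with their sex difference known. Gata4, Hand2 and Tcf21 passed the filter only through male libraries, so nothing is read from these counts. Over all genes tested, calls covered 60.7%, with 30.9% higher in female and 29.8% lower, while 0.338% had 0 counts in every female and 0.56% in every male library.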
